A study of Mus musculus with 28 samples.

Results

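Ribosome-bound mRNAs of retinal ganglion cell (RGC) axons were compared with those of the retina at P0.5, a stage just after birth. The comparison rests on 4 of the 28 samples of the series, namely 2 axon libraries and 2 retina libraries, and 2 Cre-negative libraries of the same stage served only as a background check. Genes were ranked within each library among the 3999 of 23995 listed genes that reached 1 FPKM (a fragment count normalised to transcript length and library size) in at least 2 of the 4 libraries. All mice were C57BL/6 and carried the RiboTag allele, in which Cre recombination adds an HA tag to Rpl22, a protein of the large ribosomal subunit, so that an antibody to HA pulls down the ribosomes of recombined cells. Axon libraries came from the superior colliculus (SC) of Cre-positive mice, in which Pax6-alpha-Cre switched on the tag in progenitors of the peripheral retina. Retina libraries came from the eyes of Cre-positive mice, and Cre-negative libraries from the SC of littermates that carried the RiboTag allele without Cre. Tissue of several animals was pooled in each sample, and according to the study's methods whole eyes were used for the retina group.

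RGCs are the output neurons of the retina, and their axons end in the SC, far from the cell bodies. Around birth these axons branch and start to form synapses, a phase that draws on growth cone proteins, the microtubule cytoskeleton, membrane traffic and the release machinery. Ribosomes lie inside growing axons, so the mRNAs on tagged ribosomes in the SC give a view of what RGC axons translate, whereas tagged ribosomes in the eye come from every descendant of the recombined progenitors. The series holds no Cre-negative library of the eye, so RNA carried over without the tag was not checked on the retina side.

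The axon and retina libraries differed in composition. The 2 axon libraries listed 4620 and 4923 genes above 0, of which 3866 and 3788 reached 1 FPKM. The 2 retina libraries listed more genes above 0, 8145 and 8450, but only 1835 and 1668 reached 1 FPKM, and their 100 leading genes held 84.8% and 81.7% of all FPKM against 59.4% and 66.1% in axons. Over the genes tested, the median level was 18.6 and 10.3 FPKM in axons, 0.574 and 0.435 FPKM in retina, and 0 in both Cre-negative libraries. Depth, estimated from the spacing of the lowest values, was about 6820000 and 9040000 fragments in axons, 7120000 and 10940000 fragments in retina and 11900000 fragments in Cre-negative replicate 2, and could not be determined for Cre-negative replicate 1. At these depths 3 fragments on a transcript of 2 kb correspond to 0.137 to 0.220 FPKM. The axon libraries also stood apart from the other stages: over the same genes the median lay between 0 and 2.61 FPKM in the 12 axon and retina libraries of E17.5, P7.5 and adult. Replicates ranked genes alike, with Spearman's correlation of 0.895 between the axon libraries and 0.911 between the retina libraries, across 3999 genes that are not independent replicates. The same measure between an axon and a retina library lay between 0.216 and 0.294. Libraries from SC received more PCR rounds than those from eyes, so amplification and compartment cannot be told apart. Nothing in the labels ties a library to single animals, so p-values measure only the spread between these samples, and a lower level in bulk tissue does not tell fewer cells of a type from less RNA per cell.

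The tag's own gene and several RGC markers were scarce, while other RGC genes were not. Rpl22 was listed at 0 in both axon libraries and at 0.496 and 0.461 FPKM in retina. Thy1 and Rbpms, surface and RNA-binding markers of RGCs, were also listed at 0 in both axon libraries and stood below 0.5 FPKM in retina, and Isl1, an RGC transcription factor, stood at 0 and 0.0469 FPKM in axons and 0.596 and 0.272 FPKM in retina. None of these 4 genes reached the 1 FPKM limit, so none was tested. Sncg, a synuclein concentrated in RGCs, stood at 5.04 and 3.82 FPKM in retina and was listed at 0 in both axon libraries. Pou4f1, an RGC transcription factor, in contrast stood at 231 and 86.0 FPKM in axons and 4036 and 1226 FPKM in retina. Summed over 30 listed RGC genes, of which 13 passed the filter, the level was 1213 and 515 FPKM in axons and 6472 and 2699.9 FPKM in retina, with 1387 and 367 FPKM in Cre-negative SC. An exact 0 in these files can be a failed estimate.

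In rank, 1892 genes (47.3% of those tested) stood higher in both axon libraries than in either retina library, 1284 (32.1%) stood higher in both retina libraries, and 823 overlapped. On the deposited FPKM, limma placed 2936 genes higher in axons (73.4%) and 436 higher in retina (10.9%), at an adjusted p below 0.05. The median difference over all genes was 2.88 on the log2 scale in favour of axons, so the calls as deposited include a shift shared by most genes. After median-ratio scaling, which removed a shift of 4.43 on the log2 scale, 1457 genes were higher in axons (36.4%) and 1070 in retina (26.8%). The share of calls that went to axons was 87.1% as deposited and 57.7% after scaling. Each of the 436 genes higher in retina also ranked higher there and kept the call after scaling, and 1439 genes were higher in axons by rank and by both fits. Of the 436, 228 (52.3%) were listed at 0 in both axon libraries, and an exact 0 can be a failed estimate. Of the 2936 genes higher in axons, 292 (9.95%) were listed at 0 in both retina libraries. The scaling lowers axons against retina, so it moves a gene that is higher in retina further that way. That the retina calls were kept is therefore no added support for them. Of the genes called higher in axons as deposited, 151 were called higher in retina after scaling. Retina replicate 2 weighed most on the axon count, which was 1237 without it, and either axon library on the retina count, which was 182 without axon replicate 1 and 185 without axon replicate 2. The filter let in 2208 genes through axon libraries alone and 300 through retina libraries alone. These had to differ, so their p-values below are descriptions and no support. A named gene is of this kind where both libraries of a tissue stood below 1 FPKM. The fit was repeated on the 1491 genes that reached 1 FPKM in a library of each tissue, where 777 were higher in axons (52.1%) and 145 in retina (9.73%). Differences below are as deposited unless said to be scaled. Each gene named as higher in retina kept that call after scaling, and each named as higher in axons did too except where stated. A fold on log2(FPKM + 1) understates the change of low genes.

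**Figure D1:**
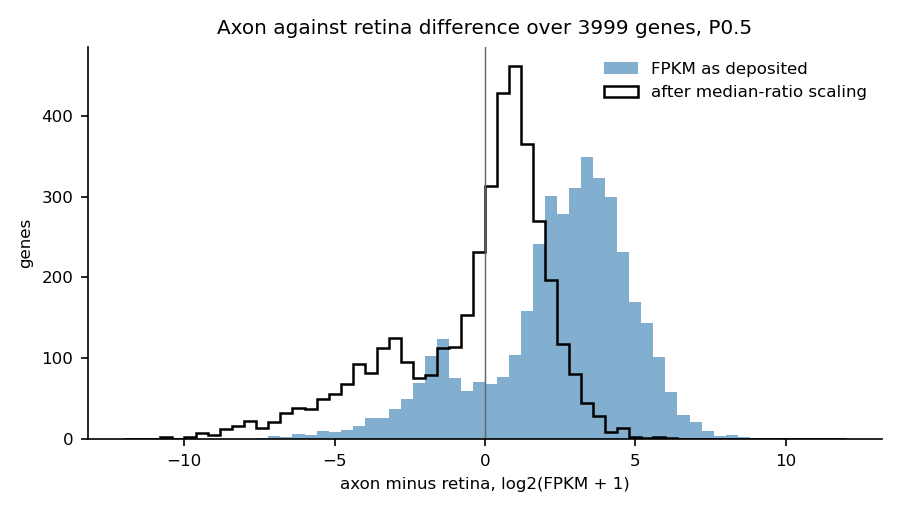
Difference between axon and retina (mean log2(FPKM + 1) of 2 axon minus 2 retina libraries, horizontal axis) for 3999 genes, with the number of genes on the vertical axis. The filled histogram shows FPKM as deposited, with a median of 2.88, and the outline shows the same genes after median-ratio scaling, with a median of 0.43.

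Growth cone and cytoskeletal mRNAs were among the genes with the widest gaps. Dbn1, an actin-binding protein of growth cones and dendritic spines, stood at 2508 and 1676 FPKM in axons and 2.05 and 0.903 FPKM in retina, a difference of 9.73 ± 0.51 (SE, n = 2 libraries a group, adjusted p = 0.0017) as deposited and 5.91 after scaling (adjusted p = 0.00053), with 439.9 and 283 FPKM in the Cre-negative libraries. Stmn2, a tubulin-binding protein of growing axons, stood at 587 and 408 FPKM in axons, 1.46 and 0.684 FPKM in retina and below 0.3 FPKM in both Cre-negative libraries, a difference of 7.91 ± 0.46 (adjusted p = 0.0017). Both axon libraries lay far above every retina library for these genes. Limch1, an actomyosin regulator, Fez1, a kinesin adaptor for axonal cargo, and Dctn3, a subunit of dynactin, differed by 9.03 ± 0.53, 8.72 ± 0.54 and 8.28 ± 0.43 with the same adjusted p. In retina, Limch1 stood at 0.660 and 0.144 FPKM and Fez1 at 0.379 and 0.0814 FPKM. Both passed the filter through the axon libraries alone, so their p-values are descriptions. Dbn1 lies on chromosome 13 (55473429 to 55488111) and Stmn2 on chromosome 3 (8509360 to 8561606) of GRCm38, which mm10 names too.

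Of 22 growth cone proteins listed, 19 passed the filter, of which 15 (78.9%, beside 73.4% of all genes) were higher in axons and 2 in retina. The median difference was 3.60 beside 2.88 over all genes. After scaling 8 were higher in axons and 7 in retina, and by rank 9 and 5, so the list as a whole split. Gap43, the growth-associated membrane protein, stood at 211 and 134 FPKM in axons and 0.747 and 0.642 FPKM in retina (6.65 ± 0.41, adjusted p = 0.0017, and 3.14 after scaling), but the Cre-negative libraries held 182 and 130 FPKM. Stmn4, another stathmin, stood at 134 and 73.0 FPKM in axons and 0.530 and 0.256 FPKM in retina, and Crmp1, a semaphorin effector, at 177 and 76.4 against 1.96 and 0.720 FPKM. For both, the Cre-negative libraries stayed below 0.2 FPKM. Marcks, a substrate of protein kinase C that binds actin, went the other way, with 155 and 323 FPKM in axons and 3449 and 3371 FPKM in retina (-3.92 ± 0.55, adjusted p = 0.0036, and -8.32 after scaling). Dpysl2, a microtubule assembly factor of growth cones, was abundant everywhere, with 13552 and 12634 FPKM in axons and 19872 and 12289 FPKM in retina, which overlapped (-0.26 ± 0.46, adjusted p = 0.62), though the scaled fit placed it in retina (-4.68, adjusted p = 0.0010). Stmn1 changed side with the scale, at 2.70 ± 0.54 as deposited (adjusted p = 0.0097) and -1.59 after scaling (adjusted p = 0.033).

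Of 14 tubulins listed, 10 passed the filter, 9 were higher in axons and none in retina as deposited (median difference 5.29 beside 2.88 over all genes), and 6 against 1 after scaling. By rank, 7 (70.0%, beside 47.3% of all genes) stood higher in axons and 1 in retina. The summed level of the list did not separate the tissues. It was 24691 and 27778 FPKM in axons, 34688 and 63.3 FPKM in retina, and 16833 and 13385 FPKM in Cre-negative SC. Tubb3, the neuronal beta-tubulin, stood at 3059 and 1804 FPKM in axons against 26.5 and 13.9 FPKM in retina (6.86 ± 0.58, adjusted p = 0.0017, and 2.50 after scaling). Tubb2b stood at 893 and 575 FPKM against 9.87 and 5.05 FPKM, and Tubb4a at 257 and 123 against 3.96 and 1.51 FPKM. Tubb4a was nearly absent from the Cre-negative libraries (0.144 and 0.0411 FPKM), whereas Tubb3 reached 421 FPKM and Tubb2b 221 FPKM there. Tubulins are close copies of each other, so reads shared between them make their separate levels uncertain. The scaled fit did not call Tuba1a, the chief alpha-tubulin of young neurons (4.80 ± 0.64, adjusted p = 0.0033, as deposited and 0.42, adjusted p = 0.52, after scaling).

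Among neurofilaments and microtubule-associated proteins, 12 of 16 tested members were higher in axons and none in retina, with a median difference of 2.50 below that of all genes, and 6 against 5 after scaling. Mapt, the microtubule-binding protein tau, stood at 211 and 119 FPKM in axons and 1.61 and 1.32 FPKM in retina (6.02 ± 0.45, adjusted p = 0.0017, and 2.17 after scaling). Ina, the neurofilament alpha-internexin, stood at 71.0 and 81.7 FPKM against 0.740 and 0.481 FPKM, and Nefl, the light neurofilament chain, at 47.5 and 17.54 against 0.767 and 0.848 FPKM. Nefl was not called after scaling (0.61, adjusted p = 0.21).

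Motors of axonal transport were the next group. Of 25 tested kinesin, dynein and dynactin genes, 23 were higher in axons and 1 in retina (median difference 3.78). The 23 are 92.0% of those tested, beside 73.4% of all genes. After scaling 11 were higher in axons and 3 in retina, and 17 (68.0%, beside 47.3% of all genes) ranked higher in axons. Dctn3 stood at 1318 and 1032 FPKM in axons and 2.66 and 2.83 FPKM in retina, although the Cre-negative libraries held 452 and 311 FPKM. Dctn6, another dynactin subunit, stood at 153 and 123 FPKM in axons and 0 and 0.227 FPKM in retina, with at most 0.108 FPKM in the Cre-negative libraries. Kifap3, the cargo adaptor of kinesin-2, stood at 110.3 and 61.0 FPKM against 0.263 and 0.344 FPKM, with 74.7 and 57.5 FPKM in the Cre-negative libraries. Dctn4 was the exception, higher in retina at 2196 and 2640 FPKM against 786 and 1074 FPKM (-1.39 ± 0.45, adjusted p = 0.040).

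**Figure D2:**
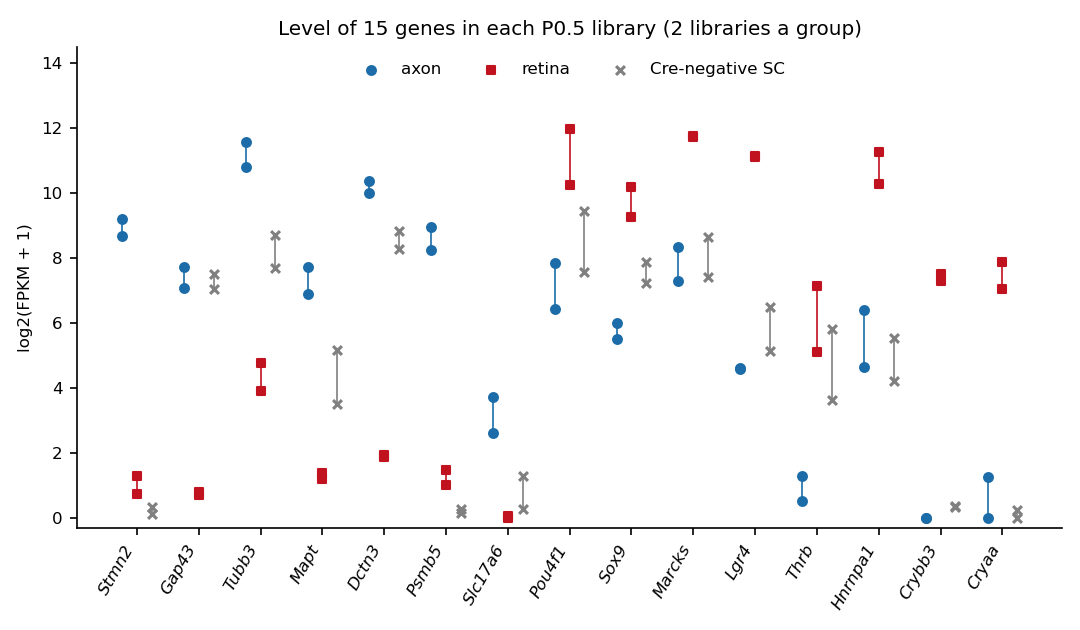
Level of 15 genes (horizontal axis) in each P0.5 library as log2(FPKM + 1) (vertical axis). Blue circles are the 2 axon libraries, red squares the 2 retina libraries and grey crosses the 2 Cre-negative SC libraries, with lines joining the libraries of a group. Stmn2 to Slc17a6 lay higher in both axon libraries and Pou4f1 to Cryaa higher in both retina libraries, and the grey crosses reached the axon level for Gap43.

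Synaptic vesicle genes and membrane traffic genes lay near the shares of all genes. Of 42 tested synaptic vesicle genes, 36 (85.7%, beside 73.4% of all genes) were higher in axons and 1, Sncg, in retina, with a median difference of 2.98 beside 2.88. After scaling 15 (35.7%, beside 36.4%) were higher in axons and 9 in retina, and by rank 18 (42.9%, beside 47.3%) and 12. Snap47, a SNARE protein, stood at 235 and 92.9 FPKM in axons and 0.674 and 0.274 FPKM in retina (6.67 ± 0.58, adjusted p = 0.0017). Rab3a, the vesicle GTPase of release sites, stood at 249.7 and 167 FPKM against 1.76 and 2.64 FPKM, and Syngr3, a vesicle membrane protein, at 124 and 64.3 against 0.628 and 0.255 FPKM. All 3 stayed at or below 0.2 FPKM in the Cre-negative libraries. Clta, a clathrin light chain, lay at 57.3 and 39.1 FPKM in axons and 6.11 and 6.21 FPKM in retina, yet it ranked higher in both retina libraries and the scaled fit placed it there (-1.39, adjusted p = 0.024). Stx3, a syntaxin, had the widest spread, 45.4 and 8.27 FPKM in axons (2.95 ± 0.97, adjusted p = 0.042, and -0.63, adjusted p = 0.45, after scaling). Of 30 tested ER and Golgi genes, 20 (66.7%, beside 73.4%) were higher in axons and 4 in retina, 14 (46.7%, beside 36.4%) and 9 after scaling, and 18 and 9 by rank. Trappc3, part of a tethering complex, stood at 227 and 131 FPKM against 0.778 and 0.501 FPKM, and Ssr1, part of the translocon, was higher in retina at 2889 and 1403 FPKM against 229 and 98.6 FPKM (-3.73 ± 0.69, adjusted p = 0.0076).

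Of 21 tested guidance genes, 18 (85.7%, beside 73.4% of all genes) were higher in axons and 2 in retina, with a median difference of 2.59 beside 2.88, and 10 against 3 after scaling. Sema6b, a transmembrane semaphorin, stood at 70.1 and 61.7 FPKM in axons and 0.0393 and 0.206 FPKM in retina (5.90 ± 0.36, adjusted p = 0.0017, and 3.26 after scaling), with 32.5 and 24.3 FPKM in the Cre-negative libraries. Plxnb2, a semaphorin receptor, stood at 30.5 and 23.1 FPKM against 0.245 and 0.380 FPKM and was listed at 0 in both Cre-negative libraries. The retina side held Efna5, an ephrin that guides RGC axons in topographic mapping, at 1149 and 508 FPKM against 260.02 and 105 FPKM (-2.20 ± 0.73, adjusted p = 0.043), and Robo1, a Slit receptor, at 5.68 and 5.94 FPKM against 2.27 and 1.81 FPKM (-1.17 ± 0.35, adjusted p = 0.031). Of 22 tested calcium signalling genes, 16 were higher in axons, a share of 72.7% that did not exceed the 73.4% of all genes, and 1 in retina, with 10 (45.5%, beside 36.4%) against 4 after scaling. Camkv, a kinase-like protein of vesicles, stood at 54.5 and 47.3 FPKM against 0.0491 and 0.0960 FPKM, and Hpca, the calcium sensor hippocalcin, at 178 and 78.2 against 1.28 and 0.831 FPKM.

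Of 26 tested subunits of respiratory complex I, 23 (88.5%, beside 73.4% of all genes) were higher in axons and 3 in retina, 19 ranked higher in axons and 4 in retina, and the median difference of 4.57 lay above that of all genes, but the scaled fit called only 4 and 3. Ndufb9 stood at 543 and 542 FPKM in axons and 3.24 and 7.41 FPKM in retina (6.51 ± 0.53, adjusted p = 0.0017, and 2.31 after scaling), and Ndufb8 at 766 and 684 against 6.02 and 11.7 FPKM. The 3 subunits higher in retina were Ndufs6, with 0 and 0.319 FPKM in axons and 10.7 and 13.2 FPKM in retina, and Ndufb11 and Ndufa3, which were listed at 0 in both axon libraries. Of 30 tested subunits of complexes III and IV and ATP synthase, 25 (83.3%, beside 73.4%) were higher in axons and 5 in retina as deposited. After scaling these were 1 and 8, so the sign of the median turned from 3.53 to -0.66 with a scaling that moves all genes. By rank, which that shift does not touch, 16 (53.3%, beside 47.3% of all genes) stood higher in axons and 8 in retina. Of 33 tested proteasome subunits, 29 (87.9%, beside 73.4%) were higher in axons and 2 in retina, with 14 against 6 after scaling and 21 against 7 by rank. Psmb5, a catalytic subunit, stood at 496 and 305 FPKM against 1.01 and 1.77 FPKM (7.37 ± 0.47, adjusted p = 0.0017, and 3.54 after scaling), and Psma4 at 258 and 148 against 0.457 and 0.684 FPKM. Psma6 and Psme1 were the 2 members higher in retina, at 2.56 and 2.40 FPKM and at 1.57 and 1.34 FPKM, where axons had at most 0.888 FPKM of Psma6 and were listed at 0 for Psme1.

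Of 25 tested genes linked to neurodegenerative disease, 20 (80.0%, beside 73.4% of all genes) were higher in axons and 1 in retina, with a median difference of 3.57 beside 2.88. After scaling 11 were higher in axons and 5 in retina, and by rank 17 (68.0%, beside 47.3%) and 5. Prnp, the prion protein, stood at 73.8 and 28.1 FPKM against 0.556 and 0.226 FPKM and was listed at 0 in both Cre-negative libraries. Htt, huntingtin, was low in both, at 6.10 and 1.72 FPKM in axons and 0.0107 and 0.00705 FPKM in retina (2.12 ± 0.53, adjusted p = 0.019). Hap1, which binds huntingtin, stood at 190.4 and 98.5 FPKM in axons and 0.329 and 0.215 FPKM in retina, but Cre-negative libraries held 215 and 68.5 FPKM. App, the amyloid precursor protein, had 17.4 and 3.33 FPKM in axons, 0.332 and 0.402 FPKM in retina and 86.6 and 12.7 FPKM in the Cre-negative libraries, and was not called after scaling (0.02, adjusted p = 0.98). Park7, a redox-sensitive chaperone, was listed at 0 in both axon libraries and stood at 3.66 and 3.20 FPKM in retina (adjusted p = 0.0024).

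Genes of axon survival and cell death were divided. Of 12 tested, 8 (66.7%, beside 73.4% of all genes) were higher in axons and none in retina as deposited, but 2 and 4 after scaling and 3 and 4 by rank. Bax, which permeabilises mitochondria, stood at 174 and 163 FPKM in axons and 3.03 and 3.22 FPKM in retina but was not called after scaling (1.27, adjusted p = 0.053), and Bid, its activator, at 59.3 and 16.2 FPKM with 0 in both retina libraries. Sarm1, the NAD-cleaving executor of axon degeneration, stood at 79.9 and 36.6 FPKM in axons and 22.3 and 46.4 FPKM in retina, so the groups overlapped (0.73 ± 0.65, adjusted p = 0.34), and the scaled fit placed it in retina (-3.56, adjusted p = 0.0038). Atf4, a transcription factor of the stress response whose mRNA is found in axons, stood at 78.3 and 27.9 FPKM against 1.76 and 1.21 FPKM (4.28 ± 0.61, adjusted p = 0.0038, and 0.51, adjusted p = 0.29, after scaling). Acot7, a neuronal acyl-CoA thioesterase, stood at 216 and 98.9 FPKM against 5.64 and 1.52 FPKM (5.17 ± 0.71, adjusted p = 0.0035, and 1.14, adjusted p = 0.13, after scaling) and was listed at 0 in both Cre-negative libraries.

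The counts for protein synthesis genes depended on the scale. Of 59 tested cytosolic ribosomal proteins, 50 (84.7%, beside 73.4% of all genes) were higher in axons and 2 in retina as deposited, with a median of 3.38. The scaled fit, however, placed 2 in axons and 17 in retina and left the others uncalled, with a median of -0.49. The sign of the median thus turned with a scaling that moves all genes, while by rank, which that shift does not touch, 32 (54.2%, beside 47.3% of all genes) stood higher in axons and 11 in retina. Rpl8 stood at 418 and 378 FPKM against 87.2 and 77.7 FPKM, and its sign turned from 2.26 ± 0.43 to -2.14 after scaling (adjusted p = 0.0079 and 0.013). Rpl11 was called higher in axons on both scales, at 85.8 and 37.4 FPKM against 1.005 and 0 FPKM, and Rpl35a higher in retina on both, at 4.46 and 2.87 FPKM against 0.464 and 0.334 FPKM. Translation factors gave 29 (82.9%, beside 73.4% of all genes) and 2 of 35 as deposited and 7 and 7 after scaling. Eif3l and Eif3k, subunits of the initiation factor eIF3, stood at 226 and 97.3 FPKM and at 385 and 293 FPKM in axons, against at most 4.51 FPKM in retina and between 15.8 and 115 FPKM in the Cre-negative libraries. Eif1ax, a scanning factor, was listed at 0 in both axon libraries and stood at 8.03 and 4.05 FPKM in retina.

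**Figure D3:**
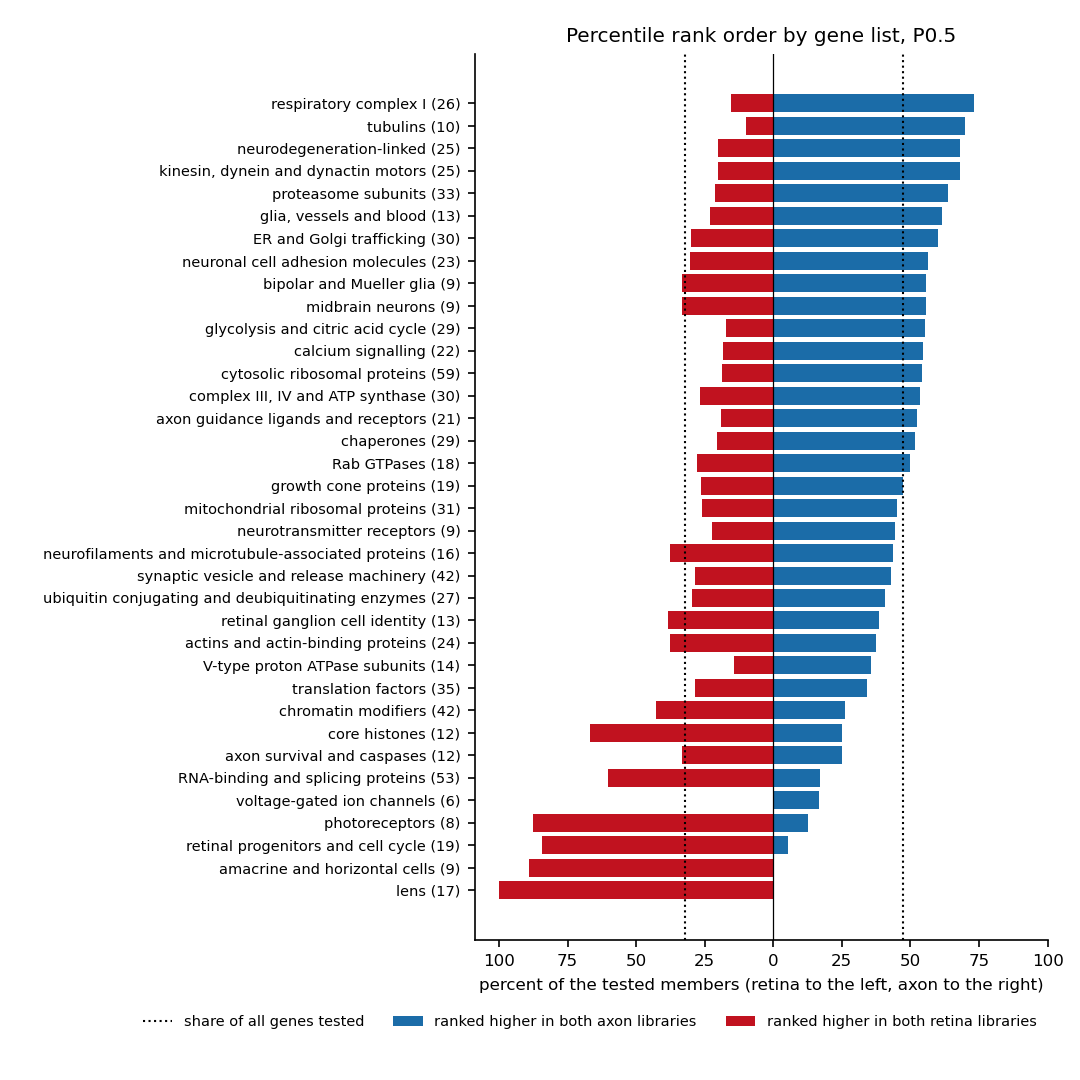
Percent of the tested members of each gene list (number tested in brackets) that ranked higher in both axon libraries (blue, to the right) or in both retina libraries (red, to the left), for lists with at least 6 tested members. Dotted lines give the shares over all genes tested, 47.3% and 32.1%. Respiratory complex I lay farthest to the axon side and the lens list farthest to the retina side.

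Lens genes were among those with the widest gaps on the retina side as deposited. Crybb3, Cryaa and Cryga, crystallins of the lens, stood at 181 and 156 FPKM, at 232 and 131 FPKM and at 117 and 134 FPKM in the retina libraries, and at 0 and 0, 0 and 1.38, and 0 and 0.243 FPKM in axons. Cryaa differed by -6.83 ± 0.61 (adjusted p = 0.0018) as deposited and by -9.38 after scaling. All 17 tested lens genes of 26 listed ranked higher in retina, 16 were called there and none in axons, with a median difference of -5.29. The summed level of the lens list was 1045.5 and 937 FPKM in retina, 0.789 and 2.80 FPKM in axons and 0.468 and 3.49 FPKM in Cre-negative SC. The part of lens RNA in the retina-higher genes was not tested, and without a Cre-negative eye library the levels cannot be set against untagged eye tissue. Of 30 listed genes of other ocular tissue only Pmel, a melanosome protein, passed the filter, at 1.58 and 1.26 FPKM in retina.

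The gamma-crystallins printed here lie on chromosome 1 and are close copies, so their separate levels are uncertain where reads match more than 1 of them. Crygd, Cryge and Crygf stood at 79.6 and 81.3, 92.5 and 100.9 and 86.6 and 85.7 FPKM in retina and at most 0.459 FPKM in axons. Coding sequences of Cryge and Crygf share 98.1% of 522 aligned bases and those of Crygd and Cryge 91.6%, by GENCODE M21 transcripts. The first 30 coding bases show how alike they are, with capitals at bases that differ from Cryge.
Cryga: atgggAaagatcaccttctaCgaggaccgc
Crygb: atgggAaagatcaccttctTCgaggaccgc
Crygc: atggggaagatcaccttctTCgaggaccgc
Crygd: atggggaagatcaccttctatgaggaccgc
Cryge: atggggaagatcaccttctatgaggaccgc
Crygf: atggggaagatcaccttctatgaggaccgc
These bases are exonic and start the coding part, on GRCm38 chromosome 1 within the genes Cryga (65100389 to 65103373), Crygb (65080219 to 65082288), Crygc (65071525 to 65073689), Crygd (65061872 to 65063452) and Cryge (65048554 to 65051149) on the minus strand and Crygf (65926520 to 65928307) on the plus strand. Over this stretch Crygd, Cryge and Crygf are identical.

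Markers of photoreceptors and progenitors followed the crystallins. Bipolar and Mueller glia genes lay near the shares of all genes by rank. Of 9 tested, 5 (55.6%, beside 47.3% of all genes) ranked higher in axons and 3 (33.3%, beside 32.1%) in retina. As deposited, 6 (66.7%, beside 73.4%) were higher in axons and 3 in retina, beside 10.9% of all genes. All but 1 of the 8 tested photoreceptor genes were higher in retina, on both scales and by rank (87.5%, beside 32.1% of all genes by rank). Thrb, a thyroid hormone receptor of cones, stood at 139 and 33.7 FPKM in retina and 1.45 and 0.438 FPKM in axons (-5.22 ± 0.81, adjusted p = 0.0047), with 55.8 and 11.5 FPKM in the Cre-negative libraries. Opn1sw, the short-wavelength cone opsin, stood at 18.1 and 45.3 FPKM against 0 and 0.493 FPKM (-4.61 ± 0.59, adjusted p = 0.0029), and Gnb3, a cone transducin subunit, at 9.31 and 4.84 FPKM against 0 in both axon libraries. Of 19 tested genes of progenitors and the cell cycle, 10 were higher in retina and 4 in axons. After scaling 16 (84.2%, beside 26.8% of all genes) were higher in retina and none in axons. Sox9, a factor of progenitors and glia, stood at 614 and 1158 FPKM in retina and 44.7 and 62.6 FPKM in axons (-3.97 ± 0.55, adjusted p = 0.0035), and Sfrp2, a Wnt modulator, at 554 and 794 against 42.5 and 81.7 FPKM. Pax6, a factor of eye formation and progenitors, was low in retina, at 2.06 and 2.56 FPKM, and was listed at 0 in axons. Crx, the photoreceptor factor, stood at 1.19 and 0.237 FPKM in retina and at 0 in axons, below the filter. Of 9 tested amacrine and horizontal cell genes, 3 were higher in retina and 4 in axons as deposited. By rank 8 (88.9%, beside 32.1% of all genes) stood higher in retina, and the scaled fit called 5 and none. Slc18a3, the vesicular acetylcholine transporter of starburst cells, stood at 6.13 and 3.10 FPKM in retina and Tfap2a, an amacrine factor, at 4.46 and 2.42 FPKM, both listed at 0 in axons.

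**Figure D4:**
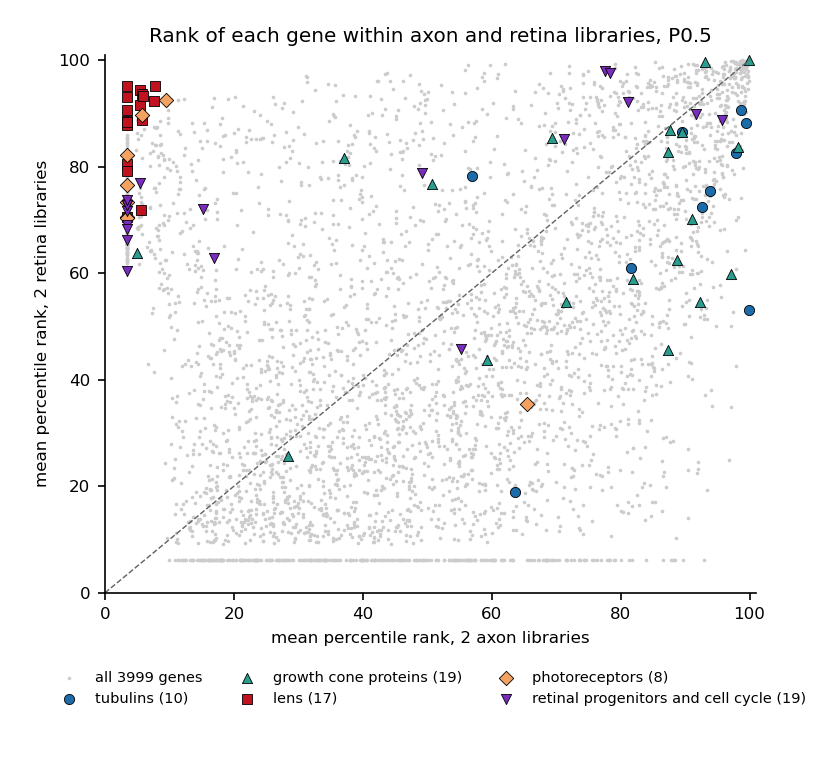
Mean percentile rank of each of 3999 genes in the 2 axon libraries (horizontal axis) and in the 2 retina libraries (vertical axis), among the genes tested. Grey points are all genes, coloured symbols 5 gene lists with the number tested in brackets, and the dashed line marks equal rank. Lens genes lie at the upper left, most tubulins lie at the right below the line, and most progenitor genes lie above it.

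Several of the most abundant retina mRNAs were regulators that were present in every library. Lgr4, a receptor for R-spondins, stood at 2226 and 2258 FPKM in retina and 23.2 and 23.3 FPKM in axons (-6.53 ± 0.42, adjusted p = 0.0017), a ratio of 96.5. Tox, a nuclear HMG-box protein, stood at 2362 and 1341 against 48.3 and 6.76 FPKM, and Btg2, an antiproliferative gene of cells leaving the cycle, at 2823 and 1258 against 35.9 and 11.7 FPKM. Tbx3, a T-box factor of the retina, differed from these in that it was nearly confined to the eye, with 170.4 and 112 FPKM there, 0 and 0.0496 FPKM in axons and 0 in both Cre-negative libraries (-7.08 ± 0.40, adjusted p = 0.0017). Tusc5, a membrane protein, at 153 and 87.9 FPKM, and Hspa2, a chaperone of the HSP70 family, at 69.1 and 116 FPKM, were likewise below 0.2 FPKM in axons.

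RNA-binding and splicing proteins, a long list, also held many genes ranked to the retina side. Of 53 tested, 25 (47.2%, beside 73.4% of all genes) were higher in axons and 14 in retina as deposited, and 7 against 29 after scaling. The median difference as deposited was 1.30 beside 2.88 over all genes. By rank 9 stood higher in axons and 32 (60.4%, beside 32.1% of all genes) in retina. Hnrnpa1, a nuclear ribonucleoprotein, stood at 1252 and 2466 FPKM in retina and 24.1 and 82.9 FPKM in axons (-5.26 ± 0.80, adjusted p = 0.0044), and Srsf10, a splicing factor, at 372 and 129 against 9.95 and 5.32 FPKM. Hnrnpc was listed at 0 in both axon libraries and stood at 24.6 and 6.17 FPKM in retina. Ybx1, a cytoplasmic mRNA-packaging protein, was among the exceptions, at 44.5 and 32.2 FPKM in axons and 0.208 and 0.181 FPKM in retina (5.02 ± 0.38, adjusted p = 0.0017, and 2.25 after scaling). The Cre-negative libraries held 35.2 and 5.56 FPKM of Ybx1, so a Cre-negative library reached an axon library. Of 12 tested core histone genes of 76 listed, 5 (41.7%, beside 73.4% of all genes) were higher in axons and 4 in retina, and 2 against 8 after scaling. Hist3h2ba and H2afv stood at 6.36 and 5.37 and at 4.32 and 4.04 FPKM in retina and at 0 in axons, while Hist3h2a stood at 236 and 146 FPKM in axons against 0 and 1.56 FPKM. Chromatin modifiers gave 30 (71.4%, near the 73.4% of all genes) and 4 of 42 as deposited and 10 and 13 after scaling.

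RGC genes themselves were split between axons and retina. Of 30 listed, 13 were tested, and 8 (61.5%, beside 73.4% of all genes) were higher in axons and 3 in retina as deposited. After scaling these were 3 and 5, and by rank 5 and 5. Pou4f1, a Brn3 factor of RGCs, stood at 4036 and 1226 FPKM in retina and 231 and 86.0 FPKM in axons (-3.97 ± 0.87, adjusted p = 0.013), but the Cre-negative libraries held 705 and 191 FPKM. Sox11, needed for RGC formation, stood at 2200 and 1199 against 518 and 215 FPKM (-2.28 ± 0.67, adjusted p = 0.031). On the axonal side, Slc17a6, the vesicular glutamate transporter of RGC terminals, stood at 12.2 and 5.13 FPKM against 0.0338 and 0 FPKM (3.14 ± 0.51, adjusted p = 0.0053, and 1.32 after scaling). Slc17a6 passed the filter through the axon libraries alone, so its p-value is a description. Nrn1, a neurite-promoting protein, stood at 12.9 and 6.68 FPKM in axons and Klf7, a factor for axon growth, at 61.6 and 35.2 FPKM, though Klf7 was not called after scaling (adjusted p = 0.056). Nrn1 was listed at 0 in retina and, like Klf7, in both Cre-negative libraries. Pou4f2 was close to the threshold, at 10.05 and 1.56 FPKM in axons and 0.0923 and 0.0904 FPKM in retina (2.29 ± 0.78, adjusted p = 0.047, and 0.45, adjusted p = 0.27, after scaling), with 48.2 and 5.82 FPKM in Cre-negative SC.

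The Cre-negative libraries show which mRNAs SC tissue yields without tagged ribosomes, each relative to its own library. According to the study, the amount of cDNA depended on Cre, and background rose with added amplification. FPKM does not carry that amount, so the levels do not measure how much of an axon library is background. Of the 2936 genes higher in axons as deposited, 2338 (79.6%) stood in both axon libraries at least 2 times above both Cre-negative libraries, beside 64.4% of all genes tested, and 1594 were listed at 0 in both Cre-negative libraries. For 462 of them (15.7%) a Cre-negative library reached an axon library. Another count, of genes higher in both Cre-negative libraries than in both axon libraries, held 128 (4.36%), beside 285 (7.13%) of all genes tested. The share over all genes was not counted for the 1594 and the 462. In a fit of all 6 libraries, 2542 of 3998 genes (63.6%) were higher in axons than in Cre-negative SC and 129 (3.23%) were lower. Vps28, an endosomal sorting protein, Mrpl46, a mitochondrial ribosomal protein, and Fdps, an enzyme of isoprenoid synthesis, were high in axons and near 0 elsewhere, with 652 and 468, 241 and 213 and 333 and 200.4 FPKM in axons and at most 1.01 FPKM in any retina or Cre-negative library. Asphd1, a hydroxylase domain protein, stood at 233 and 146 FPKM in axons and was listed at 0 in all 4 other libraries of the stage. Ftl1, ferritin light chain, Gdpd1, a phosphodiesterase, and Gsto1, a glutathione transferase, passed the limit too, but the Cre-negative libraries held 15.0 to 291 FPKM of them.

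Markers of cells that reside in the SC were found in the axon libraries. Of 9 tested midbrain neuron genes of 32 listed, 5 (55.6%, beside 73.4% of all genes) were higher in axons and 1, Pou4f1, which RGCs share, in retina. After scaling 4 were higher in axons and 3 in retina. Gata3, a factor of midbrain inhibitory neurons, stood at 531 and 176 FPKM in axons, 5.35 and 2.08 FPKM in retina and 1134 and 316 FPKM in Cre-negative SC. Pax7 and Sox14, factors of midbrain and thalamic neurons, stood at 6.23 and 7.45 and at 40.5 and 11.01 FPKM in axons and were listed at 0 in both retina and both Cre-negative libraries, so they passed the Cre-negative limit. En1, a midbrain factor, was listed at 0 in all 6 libraries. Of 13 tested genes of glia, vessels and blood of 46 listed, 12 (92.3%, beside 73.4% of all genes) were higher in axons and 1 in retina. After scaling 6 (46.2%, beside 36.4%) were higher in axons and 1 in retina, and 4 of the 12 passed the Cre-negative limit. Fabp7, of radial glia, stood at 228 and 152 FPKM in axons and 297 and 234 FPKM in Cre-negative SC and was not called after scaling (adjusted p = 0.13), and Cldn5, of vessels, at 60.9 and 27.9 and at 82.6 and 46.5 FPKM. Apoe, a lipid carrier made by glia, stood at 1549 and 1145 FPKM in axons, 7.29 and 7.30 FPKM in retina and 1575 and 813 FPKM in Cre-negative SC. Aldh1l1, an astrocyte enzyme chosen after its values were seen, stood at 19.9 and 18.2 FPKM in axons, at 0 in retina and at 0 and 0.0289 FPKM in Cre-negative SC. The summed level of the glia, vessel and blood list was 611 and 504 FPKM in axons, 145 and 107 FPKM in retina and 680.5 and 581 FPKM in Cre-negative SC, and the part of such cells in the axon-higher genes was not tested.

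By the ratio of mean FPKM, 935 genes (23.4%) stood over 100-fold higher in axons and 137 (3.43%) had a ratio below 0.1, leaving out genes listed at 0 in both libraries of a tissue, of which 295 were at 0 in retina and 228 in axons. Median-ratio scaling changed these counts to 13 and 642. Genes over 100-fold had a median coding length of 1005 bases, and those under 0.1 of 956 bases, beside 828 bases over all genes tested with a coding transcript. The 1439 genes higher in axons by rank and both fits had a median coding length of 918 bases and a 3′ UTR of 329 bases, and the 436 genes higher in retina 643 and 283 bases, while all genes had 828 and 325 bases. These lengths, of the coding transcript of median length in GENCODE M21, are a description, since FPKM itself divides by length.

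For most genes the axonal excess of P0.5 was not seen at the other stages. Of the genes higher in axons at P0.5, both axon libraries stood above both retina libraries for 8.28% (E17.5), 7.09% (P7.5) and 3.85% (adult), beside 7.5%, 7.13% and 6.18% of all genes tested. The opposite order, with retina above, was found for 21.7%, 16.2% and 11.4% of them, against 24.3%, 18.3% and 14.9% of all genes. By percentile rank, 27.7%, 33.8% and 12.2% stood in the axon order, against 22%, 28.5% and 12.7% of all genes. Genes at 0 share a rank that rises with the number of zeros in a library. At P7.5 the axon libraries held 2072 and 2191 zeros and the retina libraries 1764 and 597. A gene at 0 in all of these thus counted as higher in axons. The same held at E17.5, so the rank shares of these stages cannot show that an order was kept. Genes higher in retina at P0.5 were found higher in retina again for 49.5%, 31.9% and 25.9%, beside 24.3%, 18.3% and 14.9% of all genes. Asking this of 3 libraries rather than 4 raised the axonal share to at most 28.6%, 21.2% and 20.1%. Across the 3999 genes, the mean P0.5 retina level had a Spearman's correlation of 0.883 with E17.5 retina and 0.613 with E17.5 axons, whereas the mean P0.5 axon level had 0.272 with either, values that are not independent of the filter on P0.5.

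**Figure D5:**
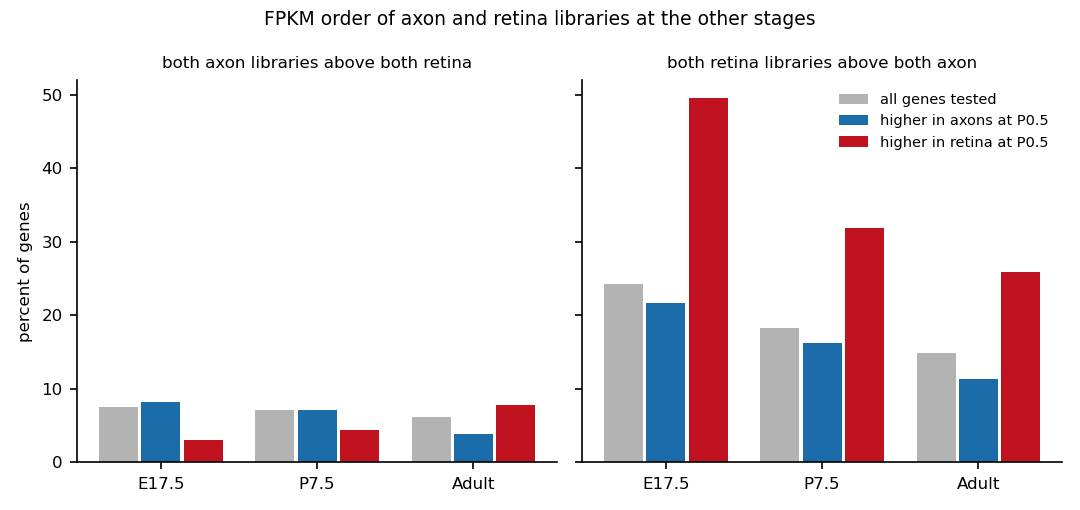
Percent of genes (vertical axis) with both axon libraries above both retina libraries (left) or the reverse (right) at each of the other stages (E17.5, P7.5, adult, horizontal axis), by FPKM, 2 libraries a group. Grey bars are all genes tested at P0.5, blue bars genes higher in axons at P0.5 and red bars genes higher in retina at P0.5. In the left panel blue bars stand at 8.28%, 7.09% and 3.85%, and in the right panel red bars stand above the grey, at 49.5% against 24.3% at E17.5.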

How the data were processed

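Deposited FPKM values of 24 libraries were used, of which 4 P0.5 libraries carry the comparison. Per the labels and the study's methods, the authors mapped reads to mm10 with TopHat2 2.0.12 and computed FPKM per gene with Cufflinks 2.2.1, each library on its own. Sample titles say P1 where the stage label says P0.5. Counts are not given here, so the low values of genes with 1 transcript, which step by 1 fragment, gave an estimate of depth. Genes with 1 FPKM in 2 of 4 libraries were kept, and Actb and Gnb1, which Cufflinks marked HIDATA in an axon library, were dropped. Percentile ranks were taken per library, and log2(FPKM + 1) was fitted with limma 3.58.1 in R 4.3.3 (trend and robust moderation, Benjamini-Hochberg adjustment over 3999 genes), also after median-ratio scaling. The fit was tested on simulated data. Of the symbols tested, 96.2% matched GENCODE M21. Genes to name were the 12 widest differences each way (mean of at least 10 FPKM, for axons also 2 times both Cre-negative libraries), up to 3 per list and direction, list members at 100 FPKM, and a fixed set. Members, lists and tests were chosen with earlier results of these data known. Alternatives covered pseudocount, filter, scaling, libraries fitted, moderation, replicate block and leaving out libraries. The 4 run-off samples were not used. Some genes of the rule are not reported here.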

Additional observations from a re-analysis of the deposited data

Results flagged for a closer look

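For 25 of the genes followed by name, the 2 axon and the 2 retina libraries of another stage stood in the opposite order to P0.5, without overlap. Whether the stages differ was not tested. Several of these orders rest on values near 0 in a library. Plxnb2 in adults was listed at 0 in both axon libraries and stood at 0.0300 and 0.576 FPKM in retina. Gsto1 at P7.5 stood at 0.0877 and 0 FPKM in axons and 0.129 and 3.44 FPKM in retina. Values are the mean log2(FPKM + 1) of axon minus retina at that stage. At E17.5, genes that stood higher in axons at P0.5 gave -1.51 for Fdps, -2.57 for Tubb4a, -1.72 for Nefl, -0.89 for Sema6a, -1.23 for App, -3.92 for Atf4, -1.82 for Stx3, -3.43 for Ndufb7, -1.90 for Copz1, -1.41 for Arf5 and -1.99 for Hist3h2a. At P7.5 such genes gave -0.996 for Dbn1, -1.10 for Gsto1, -2.72 for Stx3, -1.67 for Psmb5, -1.67 for Copz1, -2.23 for Arf5 and -2.63 for Rps15. In adults they gave -3.06 for Tuba1a, -1.59 for Tubb4a, -0.35 for Plxnb2, -5.22 for Rab3a, -2.02 for Hap1, -3.24 for Clta, -3.87 for Arf5, -2.39 for Bax and -5.75 for Rps15. At P0.5, the scaled limma fit did not call Ndufb7 (1.60, adjusted p = 0.10). Genes that stood higher in retina at P0.5 gave 1.23 for Robo1 at E17.5, 0.68 for Marcks, 2.85 for Sox11 and 1.98 for Sfrp2 at P7.5, and 2.37 for Marcks and 3.72 for Sfrp2 in adults. Arf5, a GTPase of the Golgi, was the gene with the opposite order at all 3 other stages. At P0.5 its axon level of 478 and 270 FPKM lay near the 481 and 245 FPKM of Cre-negative SC.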

How the results depend on the processing

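Scaling and the filter moved the counts most. Genes higher in axons numbered 1605 with a filter of 10 FPKM, 1457 after median-ratio scaling, 1149 after quantile normalization and 777 among genes at 1 FPKM in a library of each tissue, a setting chosen after seeing the data. Genes higher in retina numbered 175, 1070, 895 and 145 under the same settings, 1435 without the filter and 150 in a fit of 24 libraries. Genes ranked to the axon side numbered 3662 without the filter, 900 at 10 FPKM and 599 with the filter on each tissue, and to the retina side 3656, 634 and 524. Scaling left 13 genes over a ratio of 100 and 642 under 0.1. By percentile rank, 1388 axon-higher genes stood above Cre-negative SC, and 27.7%, 33.8% and 12.2% stood in the axon order at E17.5, P7.5 and in adults. The E17.5 and P7.5 shares count genes at 0 in every axon and retina library of the stage.

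Leaving out 1 library gave 1237 to 2724 genes higher in axons, lowest without retina replicate 2, and 182 to 362 higher in retina. It gave 2072 to 2161 genes ranked to axons and 1446 to 1497 to retina, 683 to 1141 over a ratio of 100, 130 to 141 under 0.1, and 2355 to 2478 above Cre-negative SC. Shares with the P0.5 order ranged over 9.23% to 28.6%, 8.31% to 21.2% and 4.43% to 20.1% for axon-higher genes and over 56.4% to 68.8%, 39.9% to 69.5% and 29.6% to 68.8% for retina-higher genes at E17.5, P7.5 and in adults, where fewer libraries ask for fewer orders. Of 131 genes followed by name, 32 and 27 lost the call without axon replicate 1 or 2, and 12 and 35 without retina replicate 1 or 2.

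The libraries share only replicate numbers, and the deviations of same-numbered axon and retina libraries had a Pearson r of 0.449 across 3999 genes, with 2 pairs. With the replicate block, 3109 genes were higher in axons and 564 in retina, and pairing by number in ranks gave 2078 and 1434.

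Named genes whose direction turned after scaling were Stmn1 (-1.59), Kif1b (-0.035), Sarm1 (-3.56), Stx3 (-0.63), Clta (-1.39), Cbln2 (-0.99), Rps3 (-4.17), Rps15 (-0.97) and Rpl8 (-2.14). After quantile normalization these were App (-0.46), Sarm1 (-1.46), Stx3 (-0.44), Clta (-0.43) and Pou4f2 (-0.12). Without 1 library, Dpysl2 ranged from -0.60 to 0.091 and Rps3 from -0.38 to 0.87, the extremes coming without either retina library. The cause was not tested. Depth limits low values, since 3 fragments are worth up to 0.220 FPKM on a transcript of 2 kb.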

Other observations

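Several gene groups were measured but not described above. Their counts are to be read against the 73.4% of all tested genes higher in axons and 10.9% higher in retina as deposited, and 36.4% and 26.8% after scaling. Of 29 tested chaperones, 25 were higher in axons and 3 in retina as deposited, and 11 against 3 after scaling. Enzymes of glycolysis and the citric acid cycle gave 26 and 1 of 29 as deposited, and 10 and 3 after scaling. Neuronal adhesion molecules gave 17 (73.9%, near that of all genes) and 1 of 23, and 10 and 5 after scaling. Mitochondrial ribosomal proteins gave 25 and 4 of 31, and 11 and 8 after scaling, and Rab GTPases 15 and none of 18, and 5 and 4 after scaling. Subunits of the V-type proton ATPase, which acidifies vesicles, were higher in axons for 13 of 14 and in retina for none, but for 2 and 1 after scaling. Actins and actin-binding proteins gave 17 and 2 of 24 as deposited, with 6 and 8 after scaling, and ubiquitin enzymes 17 and 3 of 27, with 7 and 10. Bipolar and Mueller glia genes, whose counts as deposited are given above, gave 6 and 3 of 9, and 3 and 3 after scaling. Neurotransmitter receptors gave 7 and none of 9, and 4 and none after scaling, and voltage-gated ion channels 6 and none of 6, and 1 and 1. Both tested members of a list of nuclear transcription factors with mRNAs known from axons were higher in axons as deposited, and neither was called after scaling.

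Clu, a secreted chaperone of glia, stood at 129.8 and 43.4 FPKM in axons, at 0 and 0.0557 FPKM in retina and at 0 in both Cre-negative libraries. Sox10, a factor of oligodendrocytes, chosen after its values were seen, stood at 16.7 and 4.57 FPKM in axons and was listed at 0 in retina and in Cre-negative SC.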
